A study of Mus musculus with 12 samples.

Results

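Gene expression was compared between CD4+ dendritic cells of mouse spleen kept for 2 h at 37 °C in culture and the same kind of cells lysed right after isolation. The comparison used 4 of the 12 arrays of the series, 2 of cultured and 2 of fresh cells, chosen by their titles. All 12422 non-control probe sets of the array were used, of which 10833 carried 1 gene symbol. Fresh and cultured cells alike came from spleen and had been sorted for high CD11c and for CD4. The other 8 arrays hold the CD8+ cells and the CD4- CD8- double-negative (DN) cells, each fresh and cultured with 2 arrays a group. The labels used here give no strain, age or sex of the mice, name no agent added to the culture, and do not say whether animals were pooled or whether the replicates came from separate animals. The p-values therefore speak only of these particular samples. They set the difference against a spread estimated over all 12 arrays, and that spread may be technical.

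Dendritic cells take up antigen in the tissues and present it to T cells. When they mature, they lose much of their capacity for uptake, raise costimulatory molecules such as CD80 and CD86 and the homing receptor CCR7, and hold peptide-loaded MHC class II at the surface. Handling and culture alone are known to start such a change in splenic dendritic cells. The CD4+ subset is a CD8-negative conventional dendritic cell known for strong presentation to CD4+ T cells and for its dependence on RelB, IRF4 and Notch2.

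Values are scaled intensities in arbitrary units. A floor of 91.4, set at 2 times the noise offset of the scale, marks what was taken as detected, and 6159 probe sets above it on at least 2 arrays were tested. Log2 differences are cultured minus fresh on a generalised log2 scale that accepts negative intensities, with the standard error (SE) of a limma fit to all 12 arrays. A probe set with a Benjamini-Hochberg adjusted p under 0.05 over the 6159 was called. A probe set under the floor on both arrays of one group has only a bound there, written as "at least N-fold". Below, a gene whose values stand without remark was called in all 23 alternative fits, and the others carry the adjusted p without each CD4+ array that ended the call. A fit to the 4 CD4+ arrays alone, with 2 residual degrees of freedom, ended 138 of the 218 calls of named genes and is quoted mainly where little else did.

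The sorting markers set the frame. Cd4 read 617 and 613 on the fresh arrays and 271 and 112 on the cultured ones, with a log2 difference of -1.79 ± 0.77 that was not called (adjusted p 0.121). Itgax, which encodes CD11c, read 3209.8 and 2687 fresh and 999 and 2374 cultured (-0.93 ± 0.40, adjusted p 0.125). Cd8a lay at or below 19.7 on all 4 arrays. All 11 defining dendritic cell markers listed (Itgax, Flt3, the class II chains and others) were above the floor on all 4 arrays. Of 13 T cell markers on the array, 10 were below the floor on all 4, among them Cd3e, Cd3d and Cd3g, and the summed level of the 13 was 448 and 361 fresh against 851 and 335 cultured. B cell markers summed to 5692 and 6442 fresh against 4158 and 2342 cultured, with 1 of 11 tested called lower (Cd22), and 2 without the 3 arrays described below. Of 16 B cell markers on the array 6 were above the floor on all 4 arrays, among them Ighm, Ms4a1 and Pax5, and 6 were below it on all 4, among them Cd79a. The brightest Ighm probe set read 3054.5 and 3840.3 fresh and 1708 and 678 cultured, and was not called (-1.67 ± 0.61, adjusted p 0.0766). Another Ighm probe set, at 1043 and 840 fresh and 225 and 181 cultured, was called lower (-2.19, adjusted p 0.00645). The other tested Ighm probe sets were not called. The 17 macrophage and monocyte markers summed to 6059 and 5421 fresh and 4554 and 6570 cultured, with 2 of 14 tested called higher and 5 lower (2 and 4 without the 3 arrays). Red cell markers summed to 1414 and 631 fresh and 3728 and 764 cultured, and neutrophil markers to 1025 and 670 and then 1433 and 410. Both sums were higher on replicate 1 of each group. The part of these other cells in the results was not tested. In bulk RNA, fewer cells of a type and less RNA per cell cannot be told apart.

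The 2 cultured arrays were less alike than the fresh pair. Their rank correlation was 0.831 against 0.942 for the fresh pair, and 36.0% of tested probe sets differed over 2-fold between them, against 5.89%. The main fit shares 1 spread over all groups, which can understate that of the cultured CD4+ pair. An alternative fit that weights arrays gave this pair the lowest weight (0.373). It called 717 probe sets against 1133 in the main fit, and ended 60 of the 218 calls of named genes. Replicate 1 of the cultured CD4+ cells had the highest noise of all 12 arrays, 108 against 26.2 to 82.5 on the others. Its Gapdh 3' to 5' ratio, a sign of RNA integrity, was 1.97, against 0.925 on cultured replicate 2 and 0.930 and 1.04 on the fresh arrays. The lists below are therefore also counted without the 3 arrays of the series whose Gapdh ratio was raised. These are cultured CD4+ replicate 1, fresh CD8+ replicate 1 and cultured DN replicate 1. By the actin 3' to 5' ratio, cultured CD4+ replicate 2 stood highest of the 12 arrays (1.28), with cultured CD4+ replicate 1 at 1.16. Fresh CD8+ replicate 1 (0.908) and cultured DN replicate 1 (0.919) were not raised by it. The choice of the 3 arrays thus rests on the Gapdh control alone. Without them 1 cultured CD4+ array is left, assumed to vary like the other groups, and the spread is estimated on fewer arrays. Counts from that fit are therefore not a replicated comparison. Each fit without 1 CD4+ array likewise leaves 1 array in its group.

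Of the 6159 tested probe sets, 464 were called higher after culture (7.53%) and 669 lower (10.9%), 18.4% together. In terms of genes, each given by its brightest probe set, 337 of 4735 were higher (7.12%) and 560 lower (11.8%), 18.9% together. The median log2 difference over all 4735 genes was -0.067. The median of the called probe sets was 1.86 for the higher and -1.84 for the lower. Groups did not overlap for 62.7% of all tested probe sets and 62.9% of genes, and for all 464 and 669 called ones. With the replicate number as a block, 1786 were called (791 higher, 995 lower), and without the 3 arrays of raised Gapdh ratio 1246 (557 and 689). Leaving out 1 CD4+ array moved the total to 306 (without fresh replicate 2), 362 (without fresh replicate 1), 659 (without cultured replicate 1) or 2115 (without cultured replicate 2). Of the called probe sets, 142 higher and 111 lower stayed called whichever of the 4 arrays was left out. The number of calls thus moved over 1.5-fold with each of the 4 arrays. In terms of genes, the counts were 139 higher and 141 lower without fresh replicate 1, 126 and 114 without fresh replicate 2, 225 and 298 without cultured replicate 1, and 642 and 979 without cultured replicate 2. With the replicate block the gene counts were 575 higher and 815 lower, and under quantile normalization 368 and 559. The list counts below are to be read against the counts over all genes in the same fit. For the fit without the 3 arrays these are given in probe sets. Lists near the shares of 7.12% higher and 11.8% lower held calls about as often as all genes.

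**Figure D1:**
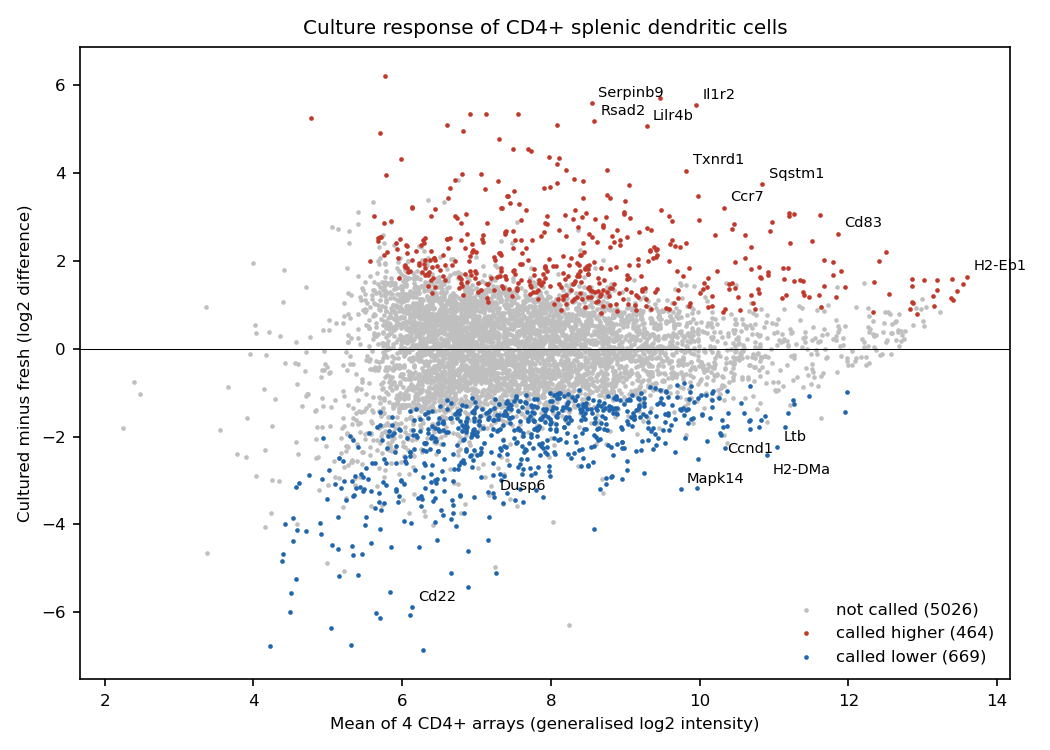
Log2 difference (cultured minus fresh, y axis) against the mean generalised log2 intensity of the 4 CD4+ arrays (x axis) for each of the 6159 tested probe sets. Red points are the 464 called higher, blue the 669 called lower and grey the rest; Il1r2, Serpinb9, Rsad2 and Lilr4b lie above 5 on the y axis, and Cd22 lies lowest of the labelled probe sets.

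The largest rise among probe sets detected on all 4 arrays was that of Il1r2, the decoy receptor that binds interleukin-1 without signalling. It read 161 and 123 fresh and 6956 and 6614 cultured, a log2 difference of 5.55 ± 0.42 (adjusted p 3.55e-05). Lilr4b, an inhibitory receptor of the leukocyte immunoglobulin-like family, read 109 and 97.5 fresh and 3983 and 3300.4 cultured (5.07 ± 0.39, adjusted p 3.55e-05). Both genes went from near the floor to among the bright signals of the array, and replicates lay close together. Ptger4, a receptor for prostaglandin E2, went from 139.7 and 143 to 2395 and 1548 (3.73 ± 0.34). Procr, the protein C receptor, read 292 and 311 fresh and 3361 and 3403 cultured (3.48 ± 0.24). Ifrd1, a transcriptional co-regulator, read 94.2 and 105 and then 1555 and 822 (3.43 ± 0.35). In each of these genes both cultured arrays exceeded both fresh ones by over 7-fold. Serpinb9, the inhibitor of granzyme B, was under the floor fresh (35.6 and 54.2) and read 1649 and 4121 cultured, at least 26.9-fold higher (adjusted p 3.55e-05). Ndrg1, a stress-responsive gene, was under the floor fresh (80.4 and 72.2) and read 1627 and 904 cultured, at least 12.5-fold higher. Spic, an Ets-family factor of red pulp macrophages, went from 22.6 and 23.3, under the floor, to 601 and 1247, at least 8.96-fold. It is on the macrophage list above, whose summed level gave no uniform direction.

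The largest fall among probe sets detected on all 4 arrays was that of Mapk14, the p38 alpha MAP kinase. It read 2553 and 2652 fresh and 251 and 316 cultured, a log2 difference of -3.20 ± 0.30 (adjusted p 0.000154). Nedd4, a ubiquitin ligase, fell from 939.8 and 911 to 115 and 203 (-2.57 ± 0.33), and its other tested probe set was called lower too. Ifngr1, the ligand-binding chain of the interferon-gamma receptor, fell from 1395 and 1139.7 to 169 and 266 (-2.56 ± 0.41). Lmo2, a LIM-domain transcription adaptor, fell from 828 and 798 to 168 and 120.4 (-2.48 ± 0.32). Each of these transcripts stayed detectable after culture. The inhibitory lectin Cd22 fell from 512 and 564 to below the floor on both cultured arrays (-72.8 and -28.3), at least 5.57-fold. Cd22 is also on the B cell list above, whose summed level was lower on both cultured arrays, and the part of B cells was not tested. The phosphatase gene Ppm1m went from 798 and 569 to 50.1 and 84.6, at least 6.97-fold lower, and Ppfia4, a liprin, from 652 and 667 to 90.8 and 21.0, at least 6.82-fold lower. Erp29, an endoplasmic reticulum protein, fell from 1187 and 1179.5 to 138 and 165 (-2.94 ± 0.31), but a second probe set had a log2 difference of 0.79 with no call (adjusted p 0.377).

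The promoters of the 4 named genes with the largest fitted log2 rise are shown here, as the 300 bases from 250 before to 50 after the start of transcription in RefSeq's table for build GRCm38.p6, to show which stimulus-response motifs stand there. Serpinb9, Ifit1 and Srxn1 were under the floor in fresh cells and have only a bound, by which Rsad2 and Ifit2 would stand before Srxn1. Capitals mark matches on either strand to the interferon-stimulated element (GAAA, any 2 bases, GAAA), the AP-1 motifs TGACTCA and TGAGTCA, the antioxidant element TGACNNNGC, the cyclic AMP element TGACGTCA or the NF-kB consensus. The interferon-stimulated and antioxidant elements were added to the search after the expression values had been seen.
Serpinb9 promoter (chr13:33004291-33004590, plus strand): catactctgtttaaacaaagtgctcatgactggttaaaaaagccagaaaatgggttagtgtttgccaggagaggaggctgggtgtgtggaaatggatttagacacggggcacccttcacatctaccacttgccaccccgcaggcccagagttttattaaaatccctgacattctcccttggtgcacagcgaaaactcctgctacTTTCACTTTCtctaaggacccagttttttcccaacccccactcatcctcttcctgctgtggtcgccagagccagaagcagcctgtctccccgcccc
Il1r2 promoter (chr1:40085843-40086142, plus strand): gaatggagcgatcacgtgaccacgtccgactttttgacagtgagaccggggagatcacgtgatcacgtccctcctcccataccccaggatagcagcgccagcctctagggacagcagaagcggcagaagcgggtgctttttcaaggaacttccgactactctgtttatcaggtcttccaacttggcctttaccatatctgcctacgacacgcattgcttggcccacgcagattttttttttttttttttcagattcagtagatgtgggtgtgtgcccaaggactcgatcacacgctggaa
Ifit1 promoter (chr19:34640639-34640938, plus strand): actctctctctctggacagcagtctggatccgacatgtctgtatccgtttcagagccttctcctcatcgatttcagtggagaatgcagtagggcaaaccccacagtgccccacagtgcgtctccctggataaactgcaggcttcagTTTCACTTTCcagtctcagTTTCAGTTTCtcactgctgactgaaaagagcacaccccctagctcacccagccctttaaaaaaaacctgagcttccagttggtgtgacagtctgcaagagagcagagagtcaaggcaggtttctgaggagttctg
Srxn1 promoter (chr2:152105274-152105573, plus strand): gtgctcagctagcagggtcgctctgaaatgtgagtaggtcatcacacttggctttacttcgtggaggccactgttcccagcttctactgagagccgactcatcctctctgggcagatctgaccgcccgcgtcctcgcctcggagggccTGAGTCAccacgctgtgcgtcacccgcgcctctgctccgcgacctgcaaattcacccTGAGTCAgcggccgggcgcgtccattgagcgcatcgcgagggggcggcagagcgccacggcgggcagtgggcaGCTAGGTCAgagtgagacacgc
Serpinb9 holds the interferon-stimulated element at -46 from the start, on the minus strand, and Ifit1 holds it at -104 and -85. Srxn1 holds TGAGTCA at -102 and -45 and TGACNNNGC at 29 on the minus strand. The Il1r2 window holds none of these motifs. Of all 32851 promoter windows, 3.44% hold the interferon-stimulated element, 5.20% an AP-1 motif, 12.4% TGACNNNGC, 1.79% TGACGTCA and 4.51% the NF-kB consensus. The CArG box, the core of the serum response element, was left unmarked, since 73.3% of all windows hold it. Among genes with a window, the interferon-stimulated element was found for 8.60% of the 279 higher genes, 2.78% of the 467 lower genes and 3.91% of the 3837 tested. An AP-1 motif was found for 10.4%, 4.93% and 5.29% in the same order, and the NF-kB consensus for 9.68%, 5.996% and 6.41%. The antioxidant element was found for 19.7%, 14.8% and 17.3%, and the cyclic AMP element for 3.94%, 2.36% and 3.68%. A match describes letters in a window and is not evidence of binding.

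Among 23 tested genes of dendritic cell maturation and costimulation, 10 were called higher and 2 lower, with a median log2 difference of 1.28 (all genes -0.067). The counts were 8 and 2 without the 3 arrays of raised Gapdh ratio. Leaving out 1 CD4+ array gave 6 (without fresh replicate 1, and without fresh replicate 2) to 11 higher (without cultured replicate 2). Cd86, the costimulatory ligand of CD28, read 96.4 and 106 fresh and 1223 and 2569.6 cultured (4.07 ± 0.39, adjusted p 0.000154). Its second tested probe set had a log2 difference of 3.34 and was not called (adjusted p 0.0725). Cd83, a surface marker of mature dendritic cells, read 1621 and 1384 fresh and 10929 and 7792 cultured (2.62 ± 0.25). Ccr7, the receptor that guides dendritic cells to T cell zones, read 435 and 402 fresh and 4373 and 3483 cultured (3.22 ± 0.31). Its fresh signal was already well above the floor. Tnfsf4, the OX40 ligand, read -3.8 and -7.3 fresh and 723 and 555 cultured, at least 6.56-fold higher. Stat4, which transmits interleukin-12 and interferon signals, read 82.8 and 160.0 fresh and 799 and 1168 cultured (3.01 ± 0.39). Ccl22, a chemokine of mature dendritic cells, read 119 and 57.1 and then 657 and 641 (2.86 ± 0.51). Cd80, the second ligand of CD28, read 84.0 and 103 fresh and 239 and 589.5 cultured (1.94 ± 0.48, adjusted p 0.0186). The Cd80 call ended without fresh replicate 1 (adjusted p 0.108), without fresh replicate 2 (0.0876), without cultured replicate 2 (0.0557) and from the 4 arrays alone (0.103), and a second probe set was not called (1.41, adjusted p 0.172). The 2 lower genes of the list were Tmem176a and Tmem176b, paired membrane proteins of immature dendritic cells. Tmem176b fell from 3939.7 and 2773 to 969 and 944 (-1.79 ± 0.34), and lost its call without fresh replicate 1 (adjusted p 0.0615). Tmem176a read 1676 and 1511 fresh and -9.6 and 456 cultured (adjusted p 0.0295), and its adjusted p was 0.122, 0.129 and 0.137 without fresh replicate 1, fresh replicate 2 and cultured replicate 1, 0.16 from the 4 arrays alone and 0.0598 with no filter.

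**Figure D2:**
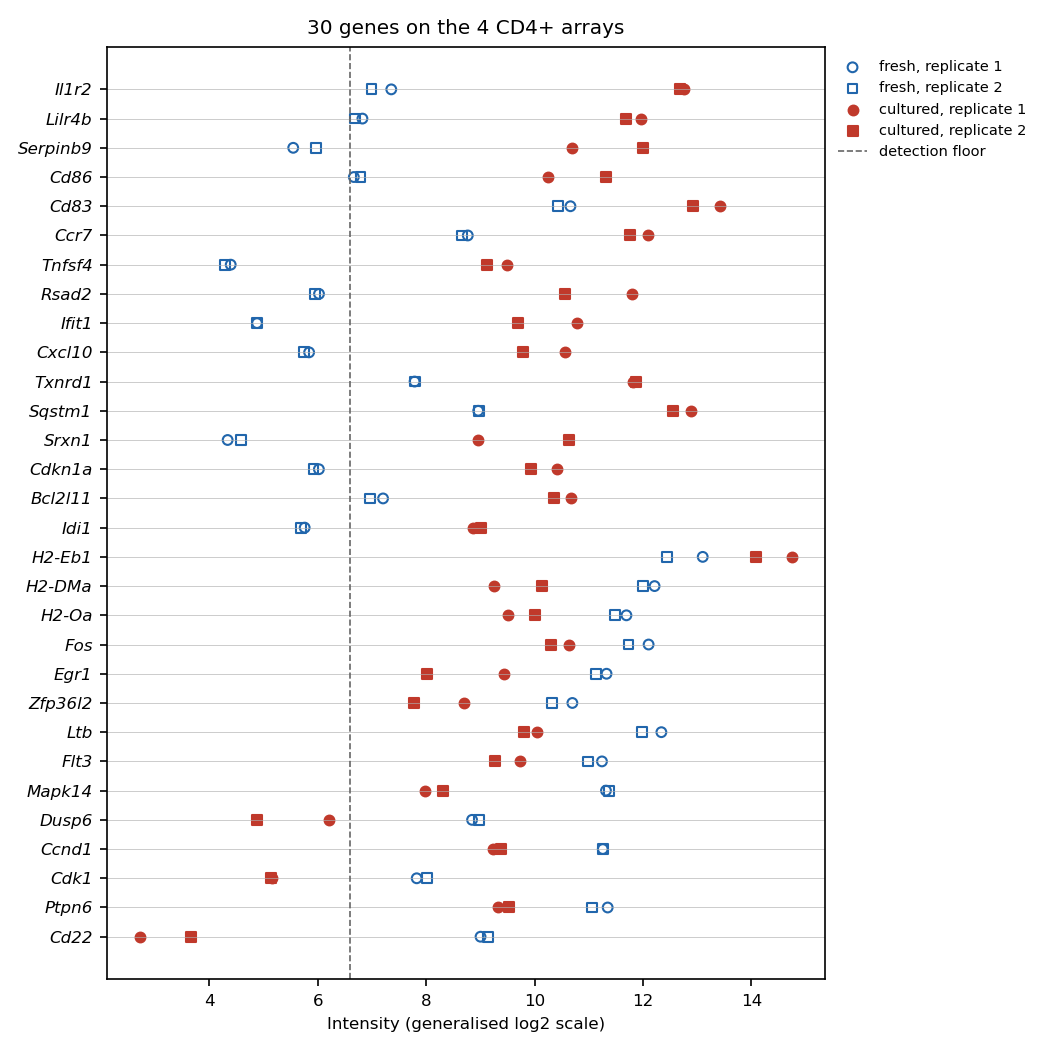
Intensity on the generalised log2 scale (x axis) of 30 named genes (y axis) on each of the 4 CD4+ arrays. Open blue symbols are fresh and filled red symbols cultured arrays, circles are replicate 1 and squares replicate 2. The dashed line is the detection floor of 91.4. All 30 were taken from the called genes, whose fresh and cultured symbols never overlap. Groups did not overlap for 62.9% of all genes tested.

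The NF-kB pathway is held inactive by IkB proteins and, once released, switches on a set of inflammatory genes and its own inhibitors. Of 10 tested subunit and IkB genes 3 were called higher and 0 lower (median 0.53), but only 1 without the 3 arrays of raised Gapdh ratio. The 3 were Nfkbia, Nfkbib and Nfkb2. Nfkbib, which encodes IkB beta, read 324 and 297 fresh and 2392 and 934 cultured (2.26 ± 0.44, adjusted p 0.00645), and its adjusted p was 0.0534 without fresh replicate 2 and 0.0686 from the 4 arrays alone. Nfkbia, which encodes IkB alpha, read 3129 and 2979 fresh and 14792 and 5278 cultured (1.53 ± 0.42, adjusted p 0.0284). Most of that rise was on cultured replicate 1, and without it the adjusted p was 0.179, and without the 3 arrays 0.0708. Without fresh replicates 1 and 2 in turn it was 0.108 and 0.141, and under quantile normalization 0.052. A second Nfkbia probe set was not called (1.45, adjusted p 0.0957). Nfkb2, the p100 precursor, read 541 and 341 and then 1543 and 723 (adjusted p 0.0472, and 0.163 without the 3 arrays). Without fresh replicate 1, fresh replicate 2 and cultured replicate 1 the Nfkb2 value was 0.0833, 0.292 and 0.282. Relb stood at 1797 and 1615 fresh and 1576 and 1412 cultured (log2 difference -0.19 ± 0.23, adjusted p 0.568).

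Of 25 tested NF-kB targets and feedback genes, 7 were called higher and 1 lower, with a median of 1.14. With the replicate block the counts were 13 and 1, and without the 3 arrays 9 and 1. Leaving out 1 CD4+ array gave 5 higher (fresh replicate 1, fresh replicate 2 or cultured replicate 1) to 12 (cultured replicate 2). Tnfaip2, a TNF-induced gene, read -42.7 and 8.5 fresh and 980.0 and 327 cultured, at least 5.87-fold higher. Traf1, an adaptor of TNF receptors, read 1117 and 992 fresh and 3280.0 and 3811 cultured (1.75 ± 0.26, adjusted p 0.00164). Gch1, the first enzyme of tetrahydrobiopterin synthesis, read 131 and 89.5 and then 1505 and 514 (2.96 ± 0.45), with an adjusted p of 0.0578 from the 4 arrays alone. Ltb, lymphotoxin beta, was the 1 member called lower. It fell from 5186 and 4049 to 1057 and 895 (-2.24 ± 0.29, adjusted p 0.000865).

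Among 18 tested TNF receptors, ligands and adaptors 6 were called higher and 1 lower (median 0.82). These were 5 and 2 without the 3 arrays, with the block 9 and 1, and leaving out 1 CD4+ array gave 3 higher (without fresh replicate 1) to 9 (without cultured replicate 2). Tnfrsf1b, the second TNF receptor, read 422 and 479 fresh and 1476 and 1592 cultured (1.77 ± 0.31, adjusted p 0.00374). Tank, a regulator of TRAF signalling, read 335 and 439 fresh and 1508 and 1557 cultured (1.99 ± 0.37), with an adjusted p of 0.0521 without fresh replicate 1. Of 10 tested cytokine and interleukin-1 family genes 2 were called higher and 2 lower (2 and 1 without the 3 arrays). Beside Il1r2 the higher one was Il1rn, the interleukin-1 receptor antagonist. It was under the floor fresh (73.1 and 55.8) and read 1787 and 817 cultured, at least 12.5-fold higher (adjusted p 0.00129). Both higher members are thus known inhibitors of interleukin-1 action. The lower ones were Il18 (209 and 174 fresh, -21.4 and 62.5 cultured, adjusted p 0.038) and Tgfb1 (931 and 749 and 481 and 359.9, adjusted p 0.0447). Without the 3 arrays the adjusted p of Il18 was 0.179. Both calls ended without fresh replicate 1 (adjusted p 0.166 for Il18 and 0.223 for Tgfb1), without fresh replicate 2 (0.156 and 0.139) and without cultured replicate 1 (0.217 and 0.0575), and that of Tgfb1 also without cultured replicate 2 (0.105).

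Among 12 tested chemokine ligands 4 were called higher and 0 lower, with a median of 1.495. The median fell to 0.50 without the 3 arrays, where the counts were the same. Leaving out 1 CD4+ array gave 3 to 7 higher, the 7 without cultured replicate 2. Cxcl10, an interferon-induced ligand of CXCR3, was under the floor fresh (48.2 and 43.8) and read 1503 and 883 cultured, at least 11.9-fold higher (adjusted p 0.00277). Ccl9 was under the floor fresh (26.7 and 30) and read 185 and 469.6 cultured, at least 3.07-fold higher, with an adjusted p of 0.0612 from the 4 arrays alone. Of 7 tested chemokine receptors Ccr7 alone was called (2 higher without the 3 arrays), and Cxcr4 read 122 and 173 fresh and 169 and 614 cultured (adjusted p 0.165).

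Of 16 tested JAK-STAT and SOCS genes 4 were called higher and 1 lower (median 0.90), and 4 and 1 without the 3 arrays. Stat5a, a transducer of GM-CSF signals, read 406 and 379.6 fresh and 2372 and 1828 cultured (2.40 ± 0.46, adjusted p 0.006). Socs1, a feedback inhibitor of cytokine receptors, was under the floor fresh (28.0 and 58.7) and read 1109 and 356 cultured, at least 6.5-fold higher, with an adjusted p of 0.0508 from the 4 arrays alone. The lower gene was Jak3, at 428 and 356 fresh and 70.9 and 98.7 cultured (adjusted p 0.0292). Its call ended without fresh replicate 1 (0.139), fresh replicate 2 (0.124) and cultured replicate 1 (0.115).

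Interferon-induced genes encode antiviral proteins and are switched on by type I interferon. Of 20 tested members 10 were called higher and 0 lower, with a median of 1.73, the highest median of any list with at least 10 tested genes. The counts were 12 and 0 without the 3 arrays, and the block left the counts at 10 and 0. Without fresh replicate 1, fresh replicate 2 and cultured replicate 1 the higher count was 6, 5 and 5. Rsad2, which encodes viperin, was under the floor fresh (57.0 and 53.1) and read 3562 and 1505 cultured, at least 23.9-fold higher (adjusted p 0.00135). Ifit1 was under the floor fresh (11.7 and 11.9) and read 1769 and 826 cultured, at least 12.5-fold higher, and its promoter is printed above. Ifit2 read 44.0 and 61.8 fresh and 1511 and 1035 cultured, at least 12.9-fold higher. These proteins bind viral RNA or hinder viral budding and translation. Ifi204, a nucleic acid sensor of the HIN-200 family, was already detected fresh at 196 and 178 and read 1283 and 1744 cultured (2.98 ± 0.37). Isg15, a ubiquitin-like modifier, read 619 and 445 fresh and 5582 and 2589.6 cultured (2.85 ± 0.63, adjusted p 0.0114), and its adjusted p was 0.0923 without fresh replicate 2 and 0.0725 without cultured replicate 1. Mx1, an antiviral GTPase, read 190.2 and 146 fresh and 933 and 901 cultured (2.43 ± 0.63, adjusted p 0.0231), and its adjusted p was 0.0806, 0.139 and 0.0774 without fresh replicate 1, fresh replicate 2 and cultured replicate 1. Among the 7 tested interferon regulatory factors 0 were called in limma (median -0.009; 1 lower without the 3 arrays), and Irf4 read 474 and 625 fresh and 1362 and 1636 cultured (adjusted p 0.157).

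Oxidative stress genes are controlled in large part by the factor NRF2, which binds antioxidant elements in DNA. Of 25 tested members 12 were called higher and 3 lower (median 1.35). They were 14 and 3 both without the 3 arrays and with the block. Without fresh replicate 1, and without fresh replicate 2, 5 were higher. Txnrd1, the cytosolic thioredoxin reductase, read 218 and 220.0 fresh and 3621 and 3755 cultured, a log2 difference of 4.06 ± 0.25 (adjusted p 1.22e-05). Sqstm1, the autophagy adaptor p62, read 497 and 503 fresh and 7537 and 6033 cultured (3.75 ± 0.23, adjusted p 1.22e-05). These are the lowest adjusted p-values of the comparison among the named genes. Srxn1, sulfiredoxin, was under the floor fresh (-5.6 and 2.0) and read 495 and 1594 cultured, at least 9.19-fold higher. Nfe2l2, which encodes NRF2 itself, read 205 and 188 fresh and 778 and 1479 cultured (2.43 ± 0.35). Fth1, the ferritin heavy chain, read 4747 and 3840.5 and then 14865 and 11005 (1.58 ± 0.24), with an adjusted p of 0.051 from the 4 arrays alone and a second probe set at 0.78 that was not called (adjusted p 0.221). Bach1, a repressor at the same DNA elements, read 186 and 192 fresh and 819 and 703 cultured (1.99 ± 0.40), with an adjusted p of 0.0546 and 0.0534 without fresh replicates 1 and 2. The 3 lower members were Txnip, Prdx2 and Cat, of which Prdx2 and Cat each had a second probe set without a call. Txnip, the inhibitor of thioredoxin, fell from 1808 and 1894 to 236 and 546 (-2.36 ± 0.47), with an adjusted p of 0.0548 without fresh replicate 2 and 0.0537 from the 4 arrays alone. A second Txnip probe set had a log2 difference of 1.15 and was not called (adjusted p 0.125).

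MHC class II chains present peptides to CD4+ T cells, and the DM and DO molecules govern their loading. Of 16 tested class II and loading genes 5 were called higher and 5 lower, with a median of -1.01 that moved to -0.13 without the 3 arrays (counts 5 and 4). The counts were 5 and 2 without fresh replicate 1, 1 and 2 without fresh replicate 2, 2 and 2 without cultured replicate 1, and 5 and 8 without cultured replicate 2. H2-DMa, the peptide exchange factor's alpha chain, fell from 4755 and 4097 to 608 and 1121 (-2.42 ± 0.39, adjusted p 0.00273), and its second probe set was called lower too. H2-Oa, the alpha chain of its inhibitor DO, fell from 3316 and 2869 to 732 and 1033 (-1.83 ± 0.27, adjusted p 0.00169). Ciita, the master activator of class II transcription, fell from 1188 and 1284 to 292 and 282 (-2.10 ± 0.56, adjusted p 0.0267). The Ciita value rested on several arrays, with an adjusted p of 0.104, 0.14 and 0.0821 without fresh replicate 1, fresh replicate 2 and cultured replicate 1, and 0.0526 with no filter. Lgmn, the asparagine endopeptidase that starts cleavage of the invariant chain, rose from 236 and 178 to 1069.6 and 1245 (2.48 ± 0.28, adjusted p 0.000364).

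The class II chains themselves read higher after culture under the deposited scaling. H2-Eb1 read 8801 and 5600.1 fresh and 27646 and 17472 cultured (1.65 ± 0.32, adjusted p 0.00645). H2-Aa read 7968 and 4822 and then 19302 and 18044 (1.59 ± 0.37), and Cd74, the invariant chain, 9004 and 5623 and then 22878 and 17271 (1.48 ± 0.35). H2-Ab1 read 6773 and 5077 fresh and 18481 and 12039 cultured (1.35 ± 0.29). These 4 calls depend on the scaling. Under quantile normalization the adjusted p was 0.345 for H2-Eb1, 0.142 for H2-Aa, 0.735 for Cd74 and 0.121 for H2-Ab1, and 1 of 16 genes of the list was then called higher and 6 lower. Without fresh replicate 2 the 4 calls ended as well (0.0727, 0.134, 0.14 and 0.0971 in the same order). Those of H2-Aa (0.0607), Cd74 (0.0862) and H2-Ab1 (0.0687) also ended without cultured replicate 1. The brightest intensity on the fresh arrays was 9004 and 6051, and on the cultured ones 27646 and 18044. Among the 50 probe sets brightest in fresh cells 14 were called higher and 2 lower (median 0.54), whereas under quantile normalization 0 were called higher by limma and their median was -0.23.

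Of 13 tested class I presentation genes 2 were called higher and 3 lower (median -0.013), with 1 and 3 without the 3 arrays. The higher ones were B2m and H2-K1, of which H2-K1 is among these brightest probe sets. B2m, the class I light chain, read 4832 and 3102 fresh and 10094 and 8304 cultured (adjusted p 0.0239, and 0.195 without fresh replicate 2 and 0.111 without cultured replicate 1). H2-K1 read 7359 and 5782 fresh and 15329 and 10619 cultured (adjusted p 0.0255), and its log2 difference turned to -0.10 under quantile normalization (adjusted p 0.682). Its call also ended without the 3 arrays (0.064), and without fresh replicate 1 (0.0638), fresh replicate 2 (0.187) and cultured replicate 1 (0.16), and a second probe set was not called (0.89, adjusted p 0.0826). Psmb9, an immunoproteasome subunit, fell from 2528 and 2345 to 462 and 1108 (-1.77 ± 0.38, adjusted p 0.0102), with an adjusted p of 0.0691, 0.0629 and 0.0532 without fresh replicate 1, fresh replicate 2 and cultured replicate 1.

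Among 28 tested cathepsin and lysosomal genes 5 were called higher and 6 lower (median 0.15), with 5 and 5 without the 3 arrays. Leaving out 1 CD4+ array gave 2 to 5 higher and 2 to 10 lower, the 10 without cultured replicate 2. Cstb, the cathepsin inhibitor cystatin B, rose from 614 and 652 to 3234 and 4574 (2.60 ± 0.29, adjusted p 0.00037). Cd63, a tetraspanin of late endosomes, read 207 and 186 fresh and 837 and 1191 cultured (2.33 ± 0.45), with an adjusted p of 0.0541 without fresh replicate 2. Asah1, acid ceramidase, fell from 472 and 621 to 37.8 and 136 (-2.72 ± 0.44), and Gusb, beta-glucuronidase, from 271 and 277 to 84.3 and 101 (-1.50 ± 0.25). From the 4 arrays alone the adjusted p was 0.0681 for Asah1 and 0.0803 for Gusb. The other higher members were Ctsz, Lgmn and Lamp2, and the other lower ones Ctsa, Glb1, Psap and Man2b1.

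**Figure D3:**
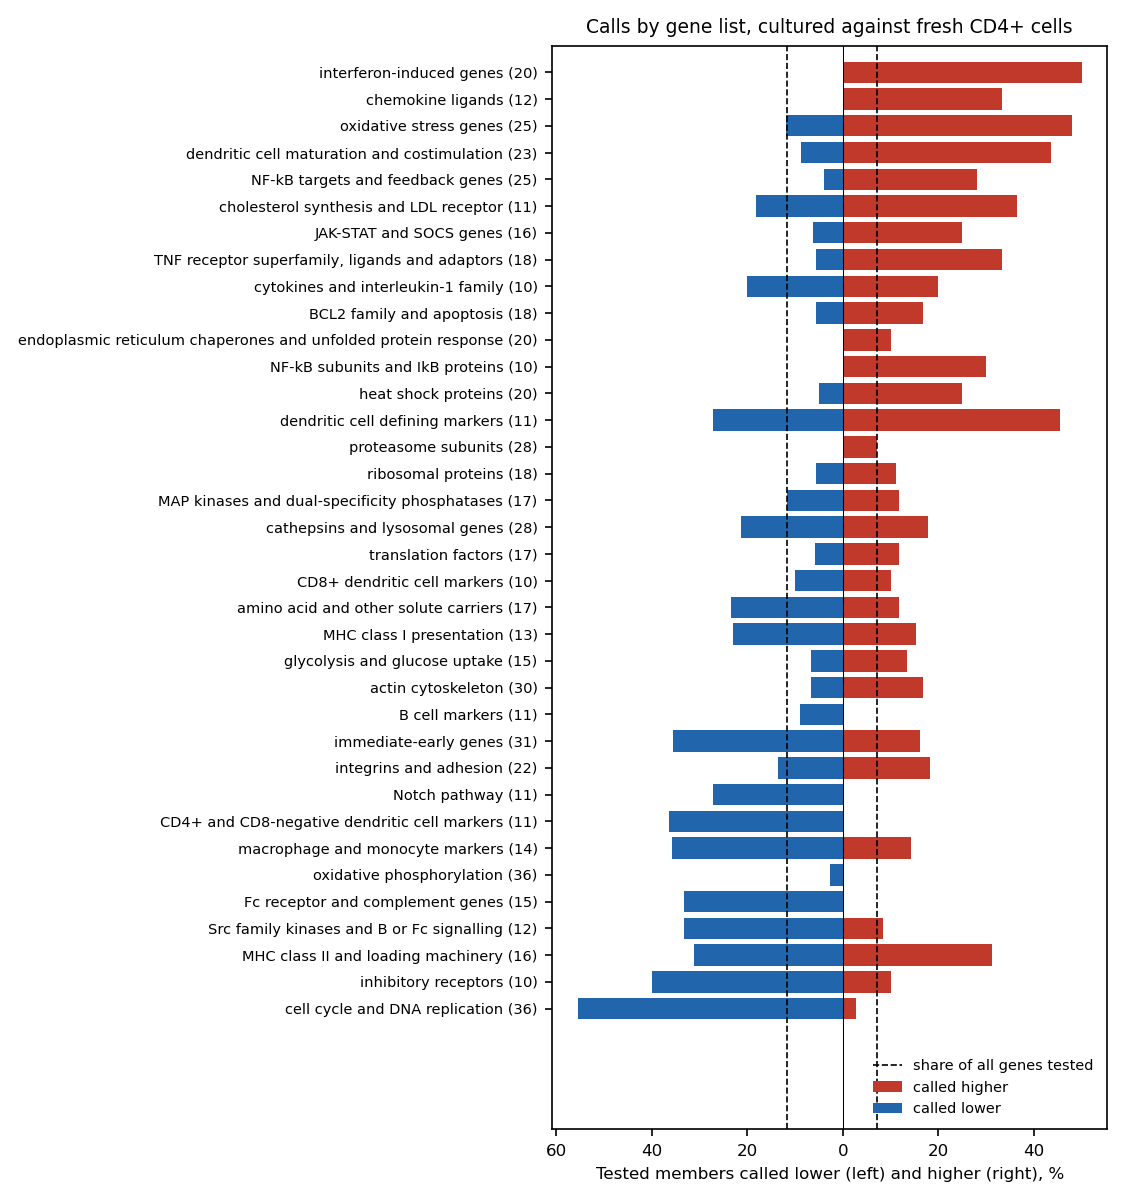
Share of the tested members of each gene list with at least 10 tested genes (number in brackets) called lower (blue bars, left) or higher (red bars, right) in cultured against fresh CD4+ cells, in percent on the x axis. The dashed lines mark the shares over all 4735 genes, 11.8% lower and 7.12% higher; lists are ordered by median log2 difference, with interferon-induced genes at the top and cell cycle genes at the bottom.

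Immediate-early genes answer stimuli within minutes, and their transcripts are short-lived. Of 31 tested members 5 were called higher and 11 lower (median -0.30), with 5 and 14 without the 3 arrays. The lower count fell to 3 without fresh replicate 1 and to 2 without fresh replicate 2. Without cultured replicate 2 it was 8, with 8 higher and a median of 0.14. Zfp36l2, an RNA-binding protein that promotes mRNA decay, fell from 1661 and 1283 to 413 and 216 (-2.28 ± 0.37, adjusted p 0.00257). Of its other probe sets 1 was called lower (-4.49) and 1 was not called (-3.75, adjusted p 0.0745). Fos read 4405 and 3407 fresh and 1592 and 1259.5 cultured (-1.45 ± 0.27, adjusted p 0.00502), with 0.0588 without fresh replicate 1 and 0.0559 from the 4 arrays alone. Jun, its AP-1 partner, read 1047 and 1129.8 fresh and 166 and 299 cultured (-2.27 ± 0.46, adjusted p 0.00802), with 0.0502 and 0.0655 without fresh replicates 1 and 2. Egr1, a zinc finger factor, read 2572 and 2245 fresh and 696 and 257 cultured (-2.50 ± 0.60, adjusted p 0.0169), with 0.0921, 0.0843 and 0.0523 without fresh replicate 1, fresh replicate 2 and cultured replicate 2. High fresh levels thus came down in each of these genes, on both cultured arrays. The higher members were Gadd45b, Plk2, Nr4a2, Id2 and Btg1. Gadd45b, a stress gene linked to growth arrest, rose from 822 and 885 to 10205 and 4992 (3.06 ± 0.39, adjusted p 0.000723). Plk2, a polo-like kinase, rose from 138 and 167 to 1003 and 827 (2.55 ± 0.29). Nr4a2, an orphan nuclear receptor, was under the floor fresh (85.4 and 85.3) and read 606 and 426 cultured, at least 5.26-fold higher. Id2, an inhibitor of helix-loop-helix factors needed for dendritic cell development, rose from 1936 and 2049.6 to 7701 and 5232 (1.67 ± 0.31).

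Of 11 tested markers typical of the CD4+ subset or of CD8-negative dendritic cells in general, 0 were called higher and 4 lower (Sirpa, Itgam, Dtx1 and Ltb). Leaving out fresh replicate 1 or fresh replicate 2 left 1 lower, and cultured replicate 1 left 2. Sirpa, the inhibitory receptor for CD47, fell from 1721 and 1523 to 104 and 475 (-2.83 ± 0.69, adjusted p 0.0178), with 0.0933, 0.092 and 0.109 without fresh replicate 1, fresh replicate 2 and cultured replicate 1. Of its other probe sets 1 was called lower (-2.26) and 1 was not called (-3.95, adjusted p 0.0622). Itgam read 129 and 120.5 fresh and was under the floor cultured (-3.5 and 2.0), at least 1.33-fold lower (limma adjusted p 0.0453). Its call ended under quantile normalization (0.102) and with array weights (0.12). It also ended without either fresh replicate, without cultured replicate 1, without the 3 arrays and in other fits. Dtx1, a regulator and target of Notch, fell from 2267 and 2131 to 757 and 851 (-1.45 ± 0.28), with 0.0599 and 0.0525 without fresh replicates 1 and 2. Of 11 tested Notch pathway genes 0 were higher and 3 lower (median -0.36; 1 and 3 without the 3 arrays), the others being Hes1 (589 and 916 fresh, 177 and 119 cultured, adjusted p 0.01) and Mfng (458 and 369 and 134 and 92.3, 0.0109). Without fresh replicate 2 the adjusted p was 0.0998 for Hes1 and 0.0589 for Mfng, and without fresh replicate 1 it was 0.0905 for Mfng. Among the 11 defining dendritic cell markers 5 were called higher (Cd86, Cd74 and the class II chains H2-Aa, H2-Ab1 and H2-Eb1) and 3 lower (Flt3, Ciita and Ly86), with 5 and 3 without the 3 arrays and 1 and 3 under quantile normalization. Flt3, the receptor of the growth factor on which dendritic cells depend, fell from 2426 and 2036 to 848 and 613 (-1.62 ± 0.29, adjusted p 0.00449, and 0.0501 from the 4 arrays alone), while a second probe set, at 0.64, was not called (adjusted p 0.302). Ly86, the MD-1 partner of the Toll-like receptor homologue RP105, fell from 1491 and 1836 to 464 and 563 (-1.69 ± 0.25). Of 10 tested markers of CD8+ dendritic cells 1 was called higher (Cd24a) and 1 lower (Batf3), also without the 3 arrays. Cd24a, a glycosylated surface protein, rose from 164 and 219 to 529 and 379 (1.22 ± 0.28, adjusted p 0.0141), with 0.125, 0.0523 and 0.0761 without fresh replicate 1, fresh replicate 2 and cultured replicate 1. Batf3, a factor of these cells, read 1616 and 1331 fresh and 586 and 281 cultured (-1.85 ± 0.35), with 0.057 without fresh replicate 1 and 0.0737 from the 4 arrays alone.

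Among 10 tested inhibitory receptors 1 was called higher (Lilr4b) and 4 lower, with a median of -1.40, and among 15 tested Fc receptor and complement genes 0 were higher and 5 lower (median -0.79). Without the 3 arrays these counts were 1 and 4, and 0 and 4. Without fresh replicate 1 they were 1 and 1, and 0 and 1, and without fresh replicate 2 they were 1 and 2, and 0 and 1. C1qc, a chain of complement C1q, fell from 459 and 412 to below the floor on both cultured arrays (-227 and -13.4), at least 4.5-fold, with an adjusted p of 0.0508 from the 4 arrays alone. Pirb, a paired immunoglobulin-like receptor, fell from 1250.4 and 1113 to 267 and 427 (-1.80 ± 0.34), with 0.0546 without fresh replicate 1 and 0.0522 from the 4 arrays alone. C1qc is also on the macrophage list. Of 12 tested Src-family and B cell or Fc receptor signalling genes 1 was called higher and 4 lower (median -0.84), and 1 and 4 without the 3 arrays. Ptpn6, the phosphatase SHP-1 that inhibitory receptors recruit, fell from 2609.7 and 2131 to 643 and 742 (-1.77 ± 0.27, adjusted p 0.00202). Fyn, a Src-family kinase, rose from 312 and 316 to 1101 and 1434 (1.99 ± 0.27, adjusted p 0.00106). Of the 4 lower genes Ptpn6 alone held without fresh replicate 1 and without fresh replicate 2, where the list's lower count was 1.

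Among 17 tested MAP kinases and dual-specificity phosphatases 2 were called higher and 2 lower. The shares over all genes tested were 7.12% higher and 11.8% lower, so the list held calls about as often as genes at large. These 4 genes were called in every alternative fit. Beside Mapk14 the lower one was Dusp6, a phosphatase that inactivates ERK. It fell from 459 and 502 to below the floor (67.3 and 11.7), at least 4.97-fold (adjusted p 0.00312), while a second, dim probe set was not called (1.17, adjusted p 0.289). Map2k3, a kinase upstream of p38, rose from 359 and 359 to 1719 and 1937 (2.34 ± 0.26, adjusted p 0.000356). Map3k1, upstream of JNK, rose from 290.1 and 307 to 1325 and 1669 (2.31 ± 0.44). The p38 gene Mapk14 and its upstream kinase Map2k3 therefore moved in opposite directions.

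Of 22 tested integrin and adhesion genes 4 were called higher and 3 lower (median -0.32), with 2 and 0 without fresh replicate 1, 2 and 1 without fresh replicate 2, and 6 and 3 without the 3 arrays. Itgav, the alpha V integrin, rose from 214 and 267 to 1533 and 1719 (2.75 ± 0.29, adjusted p 0.000267). Of its other probe sets 1 was called higher (3.05) and 1 was not called (1.48, adjusted p 0.0808). Cd9, a tetraspanin, rose from 634 and 628 to 1649.6 and 2268 (1.61 ± 0.27). Of 30 tested actin cytoskeleton genes 5 were higher and 2 lower (median -0.093), with 5 and 2 without the 3 arrays, 3 and 6 under quantile normalization, and the higher count was 1, 0 and 1 without fresh replicate 1, fresh replicate 2 and cultured replicate 1. Was, the actin regulator lost in Wiskott-Aldrich syndrome, fell from 968 and 989 to 163 and 256 (-2.24 ± 0.30, adjusted p 0.00106). Tmsb4x, thymosin beta 4, which binds free actin, read 5669 and 4064 fresh and 16052 and 12676 cultured (adjusted p 0.00757), with 0.0808 without fresh replicate 2 and 0.0539 from the 4 arrays alone.

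Cell cycle and DNA replication genes held the highest share of lower calls of any list with at least 10 tested genes. Of 36 tested members 20 were called lower and 1 higher, with a median of -1.75, also the lowest among those lists. Without the 3 arrays 21 were lower and 1 higher, and with the block 25 and 1. The lower count was 11 without fresh replicate 1, 5 without fresh replicate 2, 15 without cultured replicate 1 and 23 without cultured replicate 2, while the median stayed between -1.95 and -1.54. Ccnd1, cyclin D1, fell from 2451 and 2461 to 599 and 668 (-1.96 ± 0.29, adjusted p 0.00171), and its second probe set, at -1.0, was not called (adjusted p 0.0959). Ccnd3, cyclin D3, fell from 377 and 341 to below the floor (85.8 and 48.3), at least 3.72-fold. Cdk1, the mitotic kinase, fell from 225 and 257 to 20.9 and 20.5, at least 2.5-fold. Mcm5, a subunit of the replicative helicase, fell from 1026 and 1068 to 129.5 and 290.4 (-2.41 ± 0.43), with an adjusted p of 0.0522 from the 4 arrays alone. Its second tested probe set had a log2 difference of -0.33 (adjusted p 0.613). Ccnb2, cyclin B2, fell from 659 and 909.7 to 242 and 228 (-1.71 ± 0.28, and 0.0508 from the 4 arrays alone). The 1 higher member was Cdkn1a, the cyclin-dependent kinase inhibitor p21. It was under the floor fresh (56.9 and 52.0) and read 1372 and 981 cultured, at least 12-fold higher (adjusted p 0.000124), and its second probe set was called higher too. The other 15 members tested were not called.

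Of 18 tested BCL2 family and apoptosis genes 3 were called higher and 1 lower (median 0.57), with 5 and 0 without the 3 arrays and 6 and 2 with the block. Without fresh replicate 1, and without fresh replicate 2, 1 was higher and 0 lower. Bcl2l11, the pro-apoptotic BIM, rose from 144 and 120.4 to 1623 and 1312 (3.43 ± 0.33, adjusted p 0.000154). Of its other probe sets 1 was called higher (3.24, adjusted p 0.00211) and 1 was not called (1.28, adjusted p 0.0622). Mcl1, a pro-survival member that BIM binds, read 793 and 817 fresh and 1824 and 2752 cultured (1.48 ± 0.33, adjusted p 0.0117), with 0.0759 and 0.0787 without fresh replicates 1 and 2.

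Of 20 tested heat shock genes 5 were called higher and 1 lower (median 0.36), with 4 and 1 without the 3 arrays and 1 and 0 without fresh replicate 1. Hsp90aa1, the inducible cytosolic HSP90, rose from 1247 and 2102 to 5993 and 7147 (2.01 ± 0.34, adjusted p 0.00321). Hsph1, an HSP110 chaperone, read 341 and 841 fresh and 3364 and 3785 cultured (2.73 ± 0.59, adjusted p 0.0106), with 0.0755 without the 3 arrays and 0.0929 without fresh replicate 1. The fresh arrays themselves differed by more than 2-fold in this gene. Of 20 tested endoplasmic reticulum chaperone and unfolded protein response genes 2 were higher and 0 lower, with 1 and 1 without the 3 arrays, 0 and 0 without fresh replicate 2 and 2 and 3 without cultured replicate 2. Of 11 tested cholesterol synthesis and LDL receptor genes 4 were higher and 2 lower (median 0.93), with 4 and 1 without the 3 arrays and 2 and 0 without fresh replicate 2. Idi1, isopentenyl diphosphate isomerase, was under the floor fresh (44.5 and 41.5) and read 462 and 515 cultured, at least 5.05-fold higher. Sqle, squalene epoxidase, was under the floor fresh (66.3 and 84.5) and read 394 and 402 cultured, at least 4.13-fold higher (adjusted p 0.000912). Slc3a2, the heavy chain shared by several amino acid transporters, rose from 909 and 839 to 3212 and 3004 (1.83 ± 0.25). Of the 17 solute carriers tested 2 were higher and 4 lower, but 4 and 3 without the 3 arrays, 1 and 1 without fresh replicate 1, 1 and 0 without fresh replicate 2, 1 and 1 without cultured replicate 1 and 2 and 6 without cultured replicate 2.

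The counts of the housekeeping lists stand beside 7.12% higher and 11.8% lower over all genes tested, and several counts moved with single arrays. Of 15 tested glycolysis genes 2 were higher and 1 lower (4 and 3 without the 3 arrays). Of 36 tested oxidative phosphorylation genes 0 were higher and 1 lower (median -0.40), with 1 and 0 without the 3 arrays, 1 and 7 under the block and 1 and 9 without cultured replicate 2. Of 28 proteasome subunits 2 were higher and 0 lower, with 11 and 1 without the 3 arrays but 3 and 1 without cultured replicate 1 alone, and 1 and 5 without cultured replicate 2. Of 17 translation factors 2 were higher and 1 lower (5 and 1 without the 3 arrays). Of 18 ribosomal protein genes 2 were higher and 1 lower under the deposited scaling, 4 and 1 without the 3 arrays, and 0 and 3 under quantile normalization.

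The culture response of CD4+ cells was set beside those of the CD8+ and DN cells, whose fresh and cultured arrays are separate from the CD4+ ones. One label of fresh CD8+ replicate 1 calls its cells CD4 positive, but its Cd8a reading was 1210.4 and its Cd4 reading 92.0, and it was used as CD8+. Culture called 247 probe sets higher (4.01%) and 254 lower (4.12%) in CD8+ cells, and 259 (4.21%) and 351 (5.70%) in DN cells. In genes these were 4.05% and 4.75% in CD8+ and 4.03% and 6.21% in DN cells. Of the CD4+ calls, 170 of the higher were also called higher in CD8+ cells (36.6% of the CD4+ and 68.8% of the CD8+ list), and 212 in DN cells (45.7% and 81.9%). Of the lower calls 168 were shared with CD8+ cells (25.1% and 66.1%) and 280 with DN cells (41.9% and 79.8%). In all 3 subsets 139 were called higher and 126 lower. Of the 464 higher CD4+ calls 433 had the same sign in CD8+ and 458 in DN cells, and of the 669 lower calls 629 and 662. The medians over the CD4+ calls were 1.86, 1.20 and 1.36 (higher) and -1.84, -1.06 and -1.41 (lower) in CD4+, CD8+ and DN cells. The calls were chosen on the CD4+ values, so the larger CD4+ medians are a description. The share of same sign over all tested probe sets is not given here, so the sign counts have no background beside them.

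A test of the difference itself called 0 of 6159 probe sets for CD4+ against CD8+ cells and 0 against DN cells by limma (smallest adjusted p 0.307 and 0.999), with 525 and 127 at an unadjusted p under 0.05. None of the CD4+ responses described above is therefore shown to be particular to these cells. Without the 3 arrays of raised Gapdh ratio, 7 and 2 were called, and without cultured CD4+ replicate 2, 162 and 72. Leaving out the 3 arrays leaves 1 cultured CD4+, 1 fresh CD8+ and 1 cultured DN array, each assumed to vary like the other groups. Among the 7 were both probe sets of Cd86. Its brighter one then had a culture difference in CD4+ cells that exceeded that in CD8+ cells by 3.10 ± 0.41 (adjusted p 0.0261). The dimmer one was under the floor on both fresh CD4+ arrays, and its CD4+ rise there rested on 1 array. On the full set of arrays the brighter Cd86 probe set read 455 and 362 in fresh and 1024 and 1034 in cultured CD8+ cells, and 123 and 126 and then 1476 and 757 in DN cells. Its culture difference was 4.07 in CD4+, 1.34 in CD8+ and 3.04 in DN cells. The dimmer probe set of H2-DMa was also among those called. Its brighter one had culture differences of -2.42, -0.22 and -0.83 in CD4+, CD8+ and DN cells in the fit to all arrays. The CD8+ value rests on fresh arrays that differed, at 2817.5 and 5312, against 3086 and 3559 cultured. Between the fresh CD8+ arrays 24.7% of tested probe sets differed over 2-fold. Serpinb9, another of the 7, was detected in fresh CD8+ cells (589 and 334) but under the floor in fresh CD4+ and DN cells, and read 3542 and 3920.2 in cultured CD8+ and 2708 and 1857 in cultured DN cells.

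Genes were then taken by the lowest p for a difference between subsets, with no call. Relb, an NF-kB subunit, had a culture difference of -0.19 in CD4+ and 1.73 in CD8+ cells (p 0.000114 before adjustment, adjusted p 0.307). Bcl3, an IkB protein of the nucleus, had a difference of -0.55 in CD4+ cells, and in CD8+ cells went from under the floor (83.5 and 77.3) to 455 and 332 (p 9.55e-05, adjusted p 0.307). Dtx1 had -1.45 in CD4+ and -1.53 in DN cells, but in fresh CD8+ cells it read 108 and 90.0, near the floor, so that a fall could hardly be measured there. Mmp9, a matrix protease, read 346 and 364 in fresh CD4+ and 228 and 343 in fresh DN cells and was under the floor in both after culture. It was under the floor on all 4 CD8+ arrays, where no fall could be seen, and the same held for Cd22. Ccnd1 was measured in each subset, with -1.96 in CD4+, 0.02 in CD8+ and -1.26 in DN cells. Sqle, under the floor in fresh CD4+ cells, read 106 and 115 in fresh and 132 and 123 in cultured CD8+ cells, and 172 and 147 and then 394 and 435 in DN cells. Idi1 read 110.0 and 20.5 in fresh and 64.6 and 57.7 in cultured CD8+ cells, and 92.0 and 109 and then 590.4 and 372 in DN cells. The median over the 11 cholesterol genes was 0.93 in CD4+, -0.24 in CD8+ and 1.00 in DN cells, with no test of the difference between these medians. Against DN cells, Plk2 had the lowest p among genes of larger CD4+ value (2.55 in CD4+, 0.68 in DN and 0.78 in CD8+ cells, p 0.00086, adjusted p 0.999). By contrast Txnrd1 gave 4.06, 3.70 and 3.83 in CD4+, CD8+ and DN cells, and Sqstm1 3.75, 3.60 and 3.54.

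**Figure D4:**
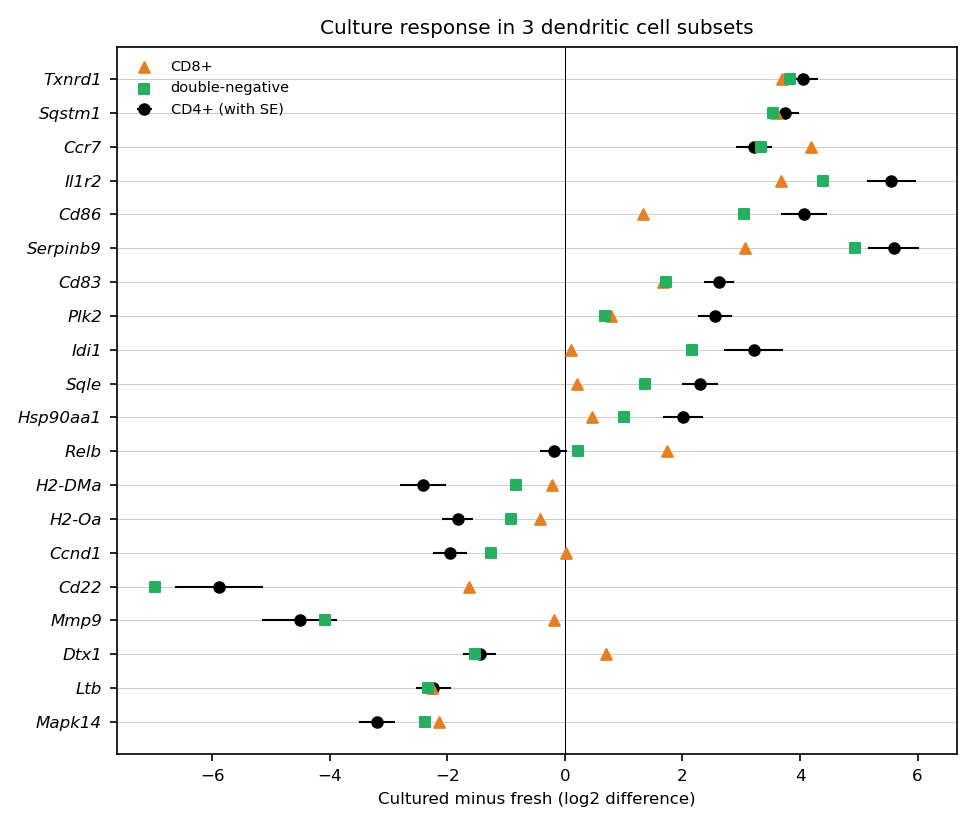
Culture response (cultured minus fresh, log2 difference, x axis) of 20 named genes (y axis) in CD4+ cells (black points with SE), CD8+ cells (orange triangles) and double-negative cells (green squares). For Txnrd1, Sqstm1 and Ltb the 3 symbols lie close together, while for Relb and Ccnd1 the CD8+ symbol lies apart. Mmp9 and Cd22 were under the floor on all 4 CD8+ arrays and Dtx1 near it in fresh CD8+ cells, so their CD8+ symbols show no measured response, and genes under the floor in a fresh or cultured group have only bounds; the difference was not called for any of the 20 in the fit to all arrays.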

How the data were processed

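The deposited values are intensities: per the labels, the authors hybridised total RNA of each sample to an oligonucleotide array and gave an Average Difference, scaled globally, for each probe set. The software used is not given in the sources used here. Such scaling brings arrays to a common overall level and leaves negative values in place. Each intensity x was transformed to log2 of (x + sqrt(x² + c²))/2. The offset c, 45.7, is the noise estimated on each array as the root mean square of its negative values, taken at the median array, and the detection floor is 2c. A probe set was tested if it exceeded that floor on 2 or more arrays (6159 of 12422). The probe-to-gene table, GEO's platform annotation, gave 10833 probe sets 1 symbol, 396 several and 1193 none, and only the first kind was named. The tested probe set of highest mean stands for a gene.

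limma 3.58.1 (R 4.3.3) fitted 1 mean per group to all 12 arrays, with trended, robust eBayes and Benjamini-Hochberg adjustment, and was tested on simulated data. Deviations of same-numbered replicates from their group means correlated at 0.106 to 0.444 over all 15 pairs of groups. The labels do not say what a number marks. The main fit, which gave the log2 differences, SE and calls, took no account of pairing. The replicate number entered only as a block in an alternative fit. Samples were grouped by title. The members, the 49 gene lists and the rule for named genes were chosen with earlier results of these data known. By that rule, values could be given for the 10 strongest called rises and 10 strongest called falls above the floor on all 4 arrays, without overlap of the groups, the 5 and 5 of largest bound, every called member of a list (up to 3 of lowest p where fewer were called), the 5 of lowest p in each direction for each difference between subsets, and Cd4, Cd8a and Itgax; the text gives values for part of these 258 genes. Alternatives changed the offset, floor, normalization, filter, arrays, weights, moderation and block. The number of arrays limits the precision.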

Additional observations from a re-analysis of the deposited data

How the results depend on the processing

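Counts of calls moved most with the arrays used. Fitting the 4 CD4+ arrays alone called 254 probe sets (150 higher, 104 lower), array weights 717 (282 and 435), and the replicate block 1786 (791 higher); leaving out 1 replicate gave 306 to 2115 in total, 172 to 882 higher and 134 to 1233 lower. The block ended 0 calls of named genes and added 7 (adjusted p with the block: Atp5c1 0.0338, Ighm 0.0318, Klrk1 0.0152, Ly75 0.0385, Ndufb5 0.0268, Psma4 0.0415, Psmd1 0.0424). Differences between subsets, 0 in the fit to all arrays, numbered 0 to 162 (CD8+) and 0 to 72 (DN) when 1 replicate was left out, 7 and 2 without the 3 arrays of raised Gapdh ratio, and 1 (Mmp9, CD8+) with eBayes without trend and robust. Of 218 called named genes 65 were called in every fit. Under quantile normalization H2-K1 turned to -0.095 and Rplp0 to -0.073. The cause of these shifts was not tested. Probe sets under the floor in a group have only bounds.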
